A study of Mus musculus with 3 samples.

Results

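The mitochondrial ribosomal protein genes were followed in skeletal muscle of mice as the 77 gene rows whose symbol is Mrpl or Mrps followed by a digit, out of 24481 rows in all. No symbol with -ps, the mark of a pseudogene, was taken. Of the 77, 48 carry a large subunit symbol (Mrpl) and 29 a small subunit symbol (Mrps), and each symbol stands on a single row. The mice were of the outbred ICR stock and 42 days old. A control was compared with a group labelled exercise control (EC) and a group labelled exercise SQH (ES, exercise plus SQH in the plots). The labels name SQH only by that code, in a series titled for Sasa quelpaertensis leaf extracts and fatigue. Each group was 1 library, so no difference has a replicate error and no test was made. The labels give no muscle name, exercise protocol or SQH dose, and do not say whether a library holds 1 animal or several.

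The mitochondrial ribosome translates the few messenger RNAs of the mitochondrial genome, all of which encode membrane subunits of the respiratory chain and ATP synthase. Its RNAs come from mitochondrial DNA, whereas every one of its proteins is encoded in the nucleus, made in the cytosol and imported. The small subunit binds the messenger RNA and reads its codons, and the large subunit joins the amino acids. Many of its proteins have a counterpart in bacterial ribosomes, and the others are particular to mitochondria. Skeletal muscle, and slow fibres above all, is rich in mitochondria.

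Values were log2 levels of 3' end reads, in which a read comes from next to the poly(A) tail and a transcript's length does not raise its count. A gene was called higher or lower at a difference of 1 on the log2 scale (2-fold) where the linear level averaged over the libraries reached 66.5, the median of the 15714 rows above 0 in a library. This left 7857 rows, among them 74 of the 77 genes, 46 of the large subunit and 28 of the small. Below the minimum were Mrpl21, Mrpl39 and Mrps18c. The ± value beside a difference is the standard error of counting reads, about 10.8 M in the control, 8.12 M in EC and 12.4 M in ES, and covers neither animals nor library preparation. The EC library stood apart from the others. All 11 slow-fibre markers were called lower in it than in the control (median -3.74), and their summed level was 19.10, 15.59 and 18.77 on the log2 scale in control, EC and ES. The 5 tested Schwann cell and nerve markers were all called higher in it than in the control (median 1.85), with summed levels of 10.25, 12.07 and 10.35. All 3 tested adipocyte markers lay higher in ES, with 2 called against EC (median 1.25) and 1 against the control (median 0.72), and their summed levels were 12.03, 11.78 and 12.34. Of 4 tendon markers, 2 were called higher and 1 lower in EC than in the control, and 2 were called higher in ES than in the control, with summed levels of 9.44, 10.02 and 9.65. Fast-fibre markers summed to 19.19, 19.64 and 18.99, so muscle genes were high in every library. Of these 9, 8 lay above the control in EC with none called. In ES 8 lay below EC, with Myh4 (-1.16) and Atp2a1 (-1.01) called lower. All 5 endothelial markers lay above the control in EC (median 0.60) with none called. Of 4 fibroblast markers, 3 lay above it and 1 below, with Col1a1 called higher (1.28). In bulk muscle, fewer cells of a type and less RNA per cell cannot be told apart. What part of any result below moved with slow-fibre, fast-fibre, nerve, adipocyte, tendon, endothelial or fibroblast markers was not tested.

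Promoter sequences were taken from RefSeq (GRCm38.p6), which held 68 of the 77 genes, as windows from 250 bases before to 50 bases after the transcription start. They show what the members share in sequence, a feature the choice by symbol did not use. Of 74 windows of these genes, 33.8% held CCGGAAG, the core bound by ETS factors such as GABP (NRF-2), a known regulator of nuclear genes for mitochondria. The share was 18.2% among 7801 windows of genes past the expression minimum and 8.86% among all 32851 windows. GCGCATGCG, the motif of NRF1, stood in 9.46%, 4.01% and 1.75% of the same 3 sets, and AAGATGGCG, that of YY1, in 10.8%, 3.42% and 1.40%. Both strands were searched, and matches can share letters, since CCGGAAG ends in the AAG that opens AAGATGGCG. A match says only that the letters are there. By gene, CCGGAAG stood in 14 of 42 large subunit genes and 11 of 26 small subunit genes. The NRF1 letters stood in 6 of 42 (14.3%) and 1 of 26 (3.85%). The YY1 letters stood in 4 of 42 and 4 of 26. Among 6011 genes past the expression minimum the shares were 21.6% (ETS), 4.7% (NRF1) and 4.26% (YY1). The NRF1 share of the small subunit was thus not above that of genes past the minimum. Windows of 4 genes with wide differences between libraries follow, with matches in capitals. Mrpl27 (chr11:94653541-94653840 on the plus strand) and Mrps26 (chr2:130563507-130563806 on the plus strand), both lower in EC, hold the ETS core. Mrpl44 (chr1:79775768-79776067 on the plus strand), also lower there, holds none of the motifs, and Mrps24 (chr11:5707652-5707951 on the minus strand), the highest of the small subunit in that library relative to the control, holds the YY1 letters.
Mrpl27: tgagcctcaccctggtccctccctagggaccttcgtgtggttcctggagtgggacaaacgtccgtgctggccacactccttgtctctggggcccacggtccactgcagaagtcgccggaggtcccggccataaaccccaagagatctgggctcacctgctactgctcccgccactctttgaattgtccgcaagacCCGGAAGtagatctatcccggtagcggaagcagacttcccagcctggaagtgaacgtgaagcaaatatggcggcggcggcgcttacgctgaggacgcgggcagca
Mrps26: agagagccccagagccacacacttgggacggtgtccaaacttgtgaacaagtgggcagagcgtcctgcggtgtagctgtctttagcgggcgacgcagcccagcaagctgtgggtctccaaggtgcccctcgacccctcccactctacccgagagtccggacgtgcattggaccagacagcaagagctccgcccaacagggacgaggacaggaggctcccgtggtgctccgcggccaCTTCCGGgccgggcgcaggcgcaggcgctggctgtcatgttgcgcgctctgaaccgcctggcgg
Mrpl44: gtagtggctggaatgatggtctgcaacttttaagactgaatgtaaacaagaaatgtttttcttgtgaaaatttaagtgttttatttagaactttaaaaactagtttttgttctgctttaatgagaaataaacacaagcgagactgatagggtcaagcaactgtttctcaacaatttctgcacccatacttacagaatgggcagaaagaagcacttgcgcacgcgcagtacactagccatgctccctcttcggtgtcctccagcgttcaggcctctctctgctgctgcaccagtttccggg
Mrps24: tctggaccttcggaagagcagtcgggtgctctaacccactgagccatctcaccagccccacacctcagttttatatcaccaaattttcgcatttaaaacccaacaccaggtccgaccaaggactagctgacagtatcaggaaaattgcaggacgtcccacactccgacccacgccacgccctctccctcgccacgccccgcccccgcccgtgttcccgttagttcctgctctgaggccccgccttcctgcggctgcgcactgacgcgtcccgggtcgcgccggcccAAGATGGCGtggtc
A motif was thus present in some genes that were lower in EC and not in others. Of the other genes with wide differences, Mrpl47 holds none of the 3 motifs in its window, and Mrpl21 holds the ETS core. Mrps28, the gene with the widest difference, and Mrps35 are not among the 68 genes with a window, so their promoters could not be examined.

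The genes were expressed at moderate levels that differed little between libraries. Large subunit genes had a median level of 8.40 in the control, 8.56 in EC and 8.35 in ES, and small subunit genes of 8.57, 8.64 and 8.70. All 77 lay above 0 in all 3 libraries. Together they took 0.434% of the linear sum of the control library, 0.447% of EC and 0.417% of ES. The range between a gene's highest and lowest library was under 0.5 for 49 of the 74 genes past the minimum, and its median was 0.36. Mrps25, a small subunit protein particular to mitochondria, was the most even, at 9.30, 9.29 and 9.29 in control, EC and ES. It shares 4590 exonic bases with Nr2c2 on the opposite strand, at 9.38, 9.53 and 9.42. Whether strand was used in counting is not given, so its reads may not be placed with certainty. Mrpl3, a large subunit protein with a bacterial counterpart, stood at 9.53, 9.58 and 9.56, and Mrpl30 at 10.16, 10.18 and 10.14. Mrps36, whose product has since been assigned to the oxoglutarate dehydrogenase complex, stood at 8.92, 8.87 and 8.89.

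The highest levels of the large subunit were those of Mrpl42, at 11.32, 11.67 and 10.999 in the same order, Mrpl53, at 11.35, 11.16 and 11.30, and Mrpl12, at 11.26, 10.98 and 10.74. Mrpl12 encodes the protein of the flexible stalk that binds translation factors. In the small subunit, Mrps23 led with 10.86, 11.03 and 10.78, followed by Mrps18a with 10.61, 10.16 and 10.20 and Mrps15 with 10.21, 10.04 and 9.82. With 1 library per group, neighbours in this order cannot be said to differ. Mrpl21, at 5.95, 4.71 and 5.91, Mrpl39, at 5.72, 6.004 and 6.278, and Mrpl40, at 6.82, 6.16 and 6.31, were the lowest of the large subunit. The lowest of the small subunit were Mrps18c, at 5.58, 6.31 and 5.79, Mrps22, at 6.42, 6.08 and 6.26, and Mrps27, at 6.32, 6.64 and 6.65. Mrps27 encodes a pentatricopeptide repeat protein of the small subunit.

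**Figure D1:**
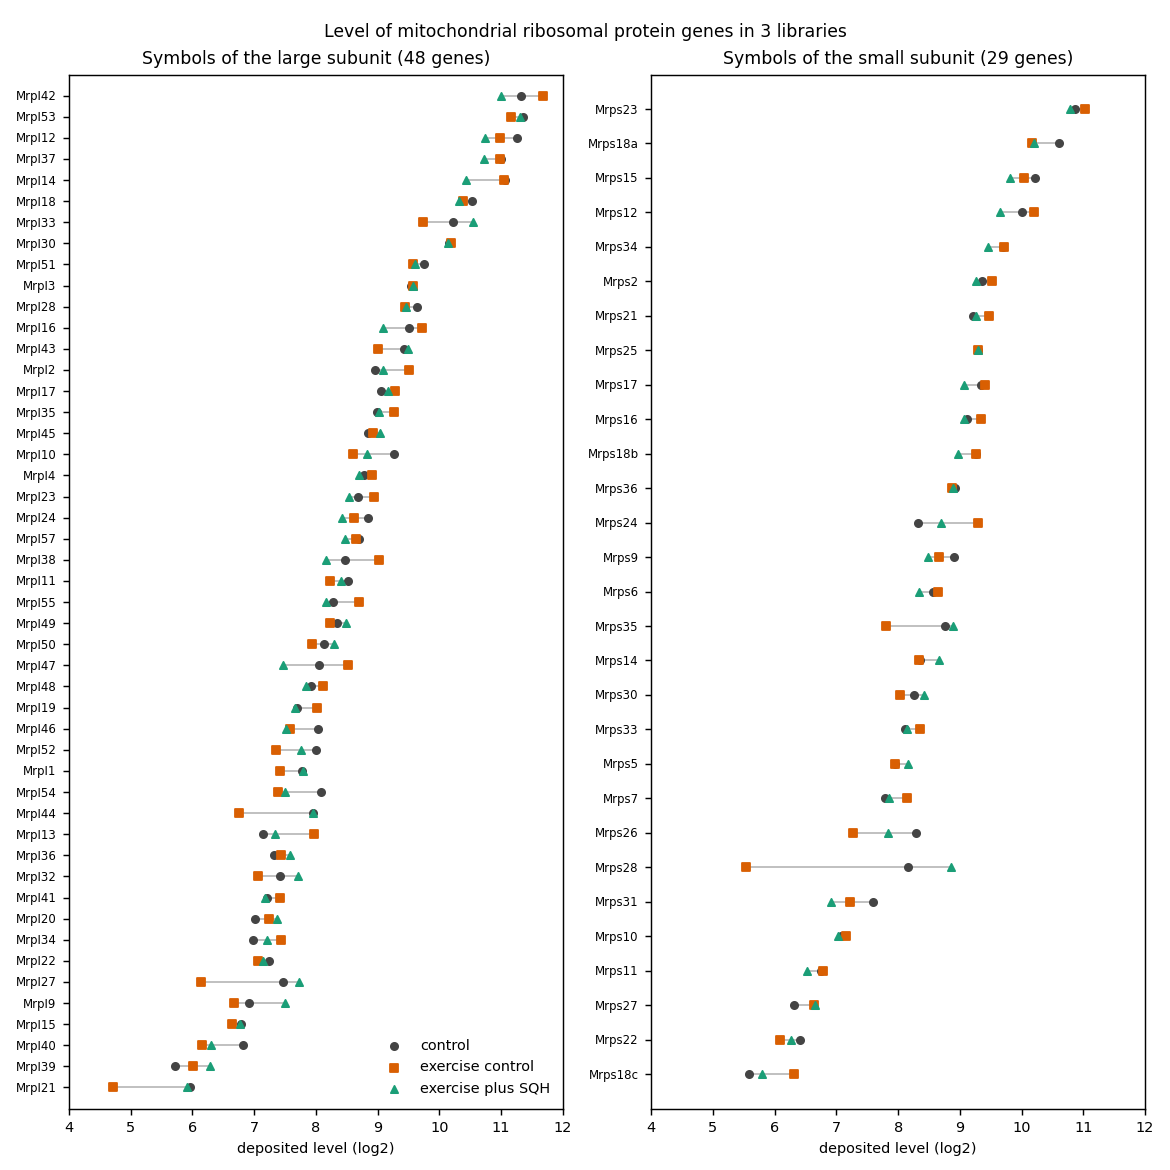
Deposited log2 level (horizontal axis) of the 77 genes, 48 with large and 29 with small subunit symbols, sorted by mean level. Each point is 1 library and the grey line spans the 3 libraries; most lines are short, and that of Mrps28 reaches from 5.54 in EC to 8.86 in ES.

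EC against control asked how exercise control muscle compared with that of the control. As a group the mitochondrial ribosomal protein genes lay close to the control. The median difference was -0.07 for the large subunit and 0.02 for the small subunit, beside -0.05 over all 7857 rows. In the large subunit 20 genes lay above the control and 26 below, and in the small subunit 15 lay above and 12 below, beside 46.3% of all rows above and 53.6% below. Differences were under 0.5 in size for 82.4% of these genes and for 68.2% of all rows. The genes called lower were 4 of 74, Mrps28, Mrpl27, Mrpl44 and Mrps26. Of all rows 5.33% were called lower, so the count was near the background. No gene of the 74 was called higher, where 2.95% of all rows were (8.29% in either direction). The summed linear level of the 77 genes was 43881 in the control and 43091 in EC, a difference of -1.80%. As a share of each library's linear sum the direction turned, from 0.434% to 0.447%, a change of 2.997%. At the 1.5-fold line 2 genes were higher and 9 lower, beside 10.1% and 15.5% of all rows.

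**Figure D2:**
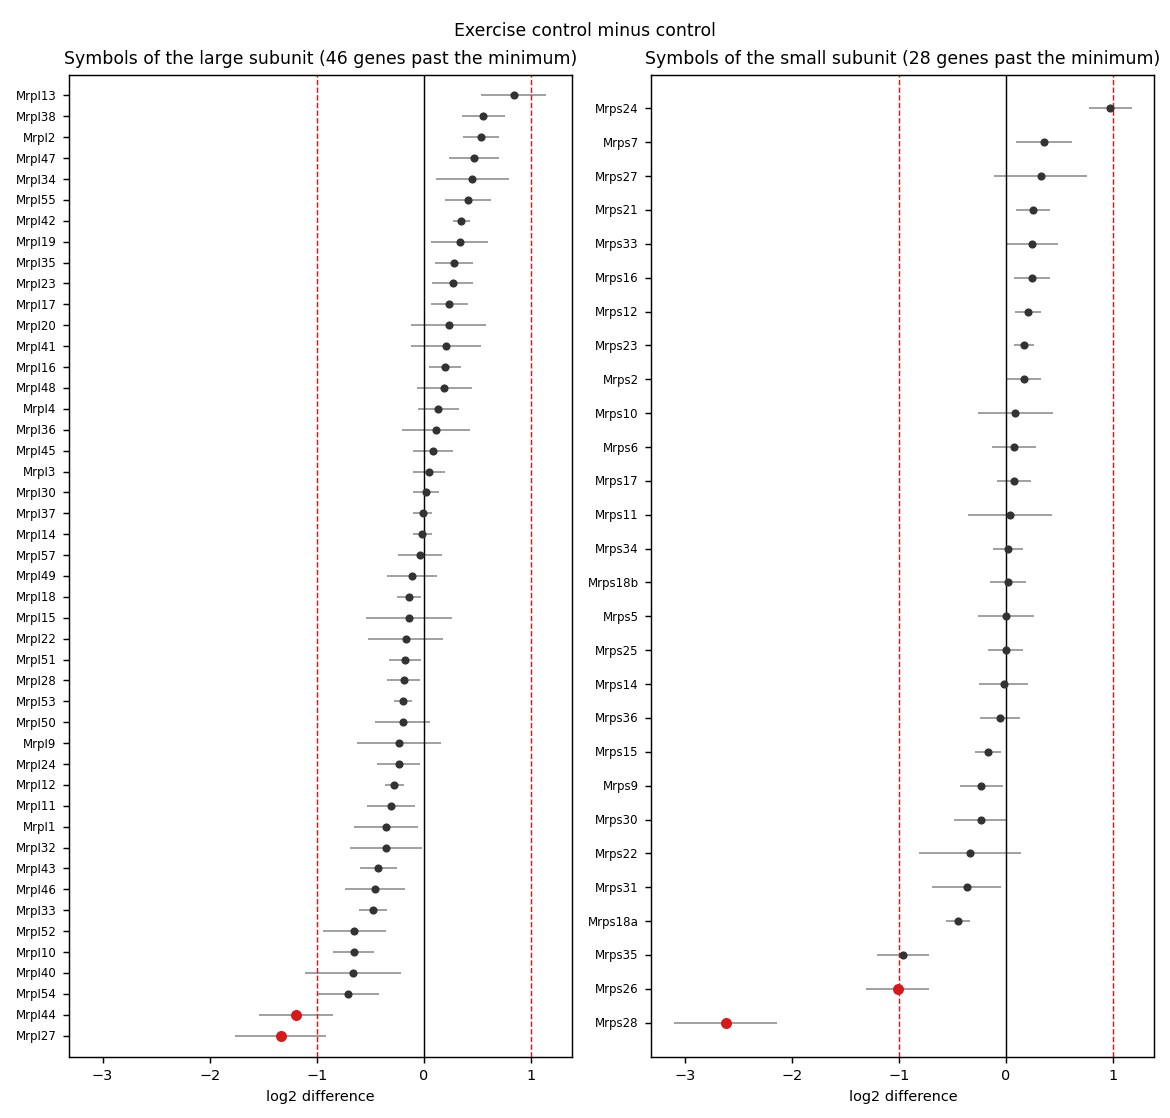
Log2 difference, EC minus control, of the 46 large and 28 small subunit genes past the minimum, sorted by difference. Bars are 1.96 standard errors of counting, dashed lines mark 2-fold and red points the called genes; Mrps28 stands alone at -2.62.

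Mrps28 had by far the widest difference of the 74. It encodes a small subunit protein related to bacterial S1, and stood at 8.16 in the control, 5.54 in EC and 8.86 in ES. In reads this was about 304, 39 and 604. EC was therefore low and both other libraries high, with ES above the control. The difference was -2.62 ± 0.25 for EC against control. Mrps28 lies on chromosome 3 from 8802146 to 8923918 on the minus strand (GENCODE M21, GRCm38), and has 1 annotated coding transcript that shares no exonic base with another gene. The last 300 bases of that transcript matched no other gene at 95% identity over 100 bases or more.

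Mrpl27, a large subunit protein with a bacterial counterpart that lies near the peptidyl transferase centre, stood at 7.47, 6.13 and 7.73 in control, EC and ES. Its difference was -1.34 ± 0.22 against the control. The gene spans 94653767 to 94660089 of chromosome 11 on the plus strand. Its last 300 bases matched 21 other genes at 95% identity or more over at least 100 bases, so reads from that stretch cannot be placed with certainty. Mrpl44, a large subunit protein with a ribonuclease III-like fold, stood at 7.95, 6.76 and 7.95. EC was low and the other libraries were level, a difference of -1.20 ± 0.18. Mrpl44 lies on chromosome 1 from 79776018 to 79781445 on the plus strand. It shares 126 exonic bases with Wdfy1 on the opposite strand, which stood at 9.54, 9.29 and 9.40. The shared bases are at the starts of both genes, whereas reads come from next to the poly(A) tail.

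Mrps26, a small subunit protein particular to mitochondria, stood at 8.28, 7.27 and 7.84, with ES between the others. It passed the 2-fold line narrowly at -1.01 ± 0.15 and did not pass it once libraries were rescaled (-0.94 after centring on the median). Mrps26 is on chromosome 2 from 130563742 to 130568695 on the plus strand. Mrps35 came just short of the line at -0.96 ± 0.13, with levels of 8.76, 7.80 and 8.90. Mrpl21, below the expression minimum, stood at 5.95, 4.71 and 5.91, about 66, 22 and 78 reads, a difference of -1.24 ± 0.36. It shares 117 exonic bases with Ighmbp2 on the opposite strand, which stood at 5.19, 3.58 and 5.08. Here too the shared bases are at the starts of both genes, not at the poly(A) ends. Whether strand was used in counting is not given in the sources used here.

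**Figure D3:**
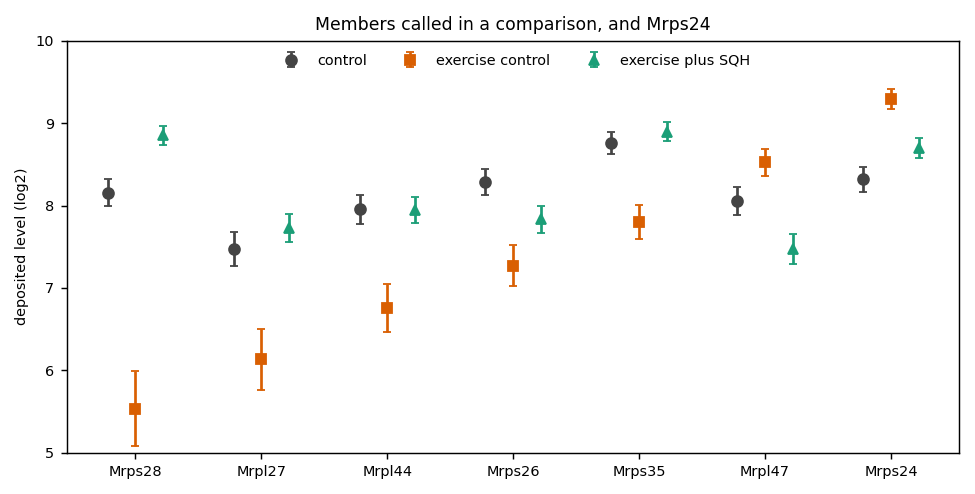
Deposited log2 level of the 6 genes called in a comparison and of Mrps24, in each library, with bars of 1.96 standard errors of counting. EC is the lowest library for Mrps28, Mrpl27, Mrpl44, Mrps26 and Mrps35 and the highest for Mrpl47 and Mrps24.

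The other genes at the lower end of the large subunit were Mrpl54 (-0.71 ± 0.15), Mrpl40 (-0.66 ± 0.23), Mrpl10 (-0.66 ± 0.10) and Mrpl52 (-0.65 ± 0.15). The last 300 bases of Mrpl40 matched 10 other genes at 95% identity over 100 bases or more, so its reads are uncertain. In all, 19 of the 77 genes had such a match elsewhere, 3 of them to 10 or more genes. The 19 include Mrpl23 (298 bases at 100%), Mrpl30 (300 bases at 97%) and Mrpl42 (176 bases at 95.5%), each matching a processed pseudogene. Mrpl53 shares 695 exonic bases with Gm42688 on its own strand. Reads of these genes too may not be placed with certainty. Exonic bases were shared with a gene on the opposite strand by 27 of the 77 genes, and on the same strand by 8. Only 33 of the 77 had neither a match elsewhere nor a shared exonic base. At the upper end were Mrpl13 (0.84 ± 0.15), Mrpl38 (0.56 ± 0.10), Mrpl2 (0.54 ± 0.09), a core protein near the peptidyl transferase centre, and Mrpl47 (0.47 ± 0.12). In the small subunit, Mrps24, the counterpart of bacterial S3 at the messenger RNA entry, was the highest. Mrps24 stood at 8.32 in the control, 9.29 in EC and 8.70 in ES, a difference of 0.98 ± 0.10. After rescaling it passed the 2-fold line (1.05 after centring, 1.03 after quantile normalization and 1.02 after TMM scaling). It shares 226 exonic bases with Urgcp on its own strand, which stood at 8.28, 7.73 and 8.32. Mrps7 (0.35 ± 0.13), Mrps27 (0.32 ± 0.22) and Mrps21 (0.25 ± 0.08) followed.

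Genes were also read by their place in the ribosome. All 3 genes of the factor-binding stalk lay below the control in EC, namely Mrpl10 (-0.66), Mrpl11 (-0.31 ± 0.12) and Mrpl12 (-0.28 ± 0.04), with none called. Of the 6 genes of the central protuberance, where the subunits touch the transfer RNAs, 4 lay below the control and 2 above, from Mrpl40 (-0.66) to Mrpl38 (0.56). At the exit tunnel, where new proteins leave, 3 of 6 tested genes lay below, from Mrpl44 (-1.20) to Mrpl23 (0.27 ± 0.10). Mrpl45, which holds the ribosome to the inner membrane, stood at 8.84, 8.92 and 9.03. Large subunit proteins with a bacterial counterpart had a median of 0.02 over 29 tested genes, and those particular to mitochondria of -0.14 over 18. The latter list holds Ict1, the older symbol of Mrpl58, which the symbol rule does not select. The corresponding small subunit medians were 0.08 over 15 genes and 0.01 over 10. Mrps30 (-0.24 ± 0.13) and Mrps18a (-0.45 ± 0.06) have small subunit symbols but sit in the large subunit in structures of the mammalian ribosome. Counted there, with Mrps36 left out, the medians became -0.13 and 0.03.

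ES was set against EC to ask what SQH added in exercised muscle. The EC library entered this comparison and the preceding one. In the large subunit the median was -0.03 and 22 of 46 genes lay above EC. In the small subunit the median was -0.20 and 10 of 28 lay above. The median over all rows was 0.03, with 52.1% above 0 and 47.8% below. The genes called higher were 4 of 74, Mrps28, Mrpl27, Mrpl44 and Mrps35, beside 5.68% of all rows. The only gene called lower was Mrpl47, beside 2.33% of all rows. In either direction 8.01% of all rows were called, so the counts were near the background. At the 1.5-fold line 7 genes were higher and 7 lower, beside 14.8% and 9.28% of all rows.

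Mrps28 was higher in ES by 3.32 ± 0.24, Mrpl27 by 1.597 ± 0.21, Mrpl44 by 1.19 ± 0.17 and Mrps35 by 1.10 ± 0.12. Mrps35, a small subunit protein particular to mitochondria on chromosome 6 from 147042764 to 147073991, stood at about 461, 187 and 621 reads in control, EC and ES. In all 4 genes EC was the low library, and ES differed from the control by 0.70 (Mrps28), 0.26 (Mrpl27), -0.01 (Mrpl44) and 0.14 (Mrps35). Mrpl47, the counterpart of bacterial L29, stood at 8.05 in the control, 8.52 in EC and 7.47 in ES. The difference of ES from EC was -1.05 ± 0.13, ES being the lowest of the 3 and EC the highest. Mrpl47 is on chromosome 3 from 32725397 to 32737605 and shares 616 exonic bases with Ndufb5 and 452 with Actl6a, both on the opposite strand. Ndufb5 stood at 11.79, 11.92 and 11.90 and Actl6a at 9.07, 8.86 and 9.18.

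Others toward the upper end were Mrpl9 (0.83 ± 0.18), Mrpl33 (0.81 ± 0.06) and Mrps26 (0.56 ± 0.15). Toward the lower end were Mrpl38 (-0.86 ± 0.10), Mrpl42 (-0.67 ± 0.04), Mrpl13 (-0.65 ± 0.14), Mrps24 (-0.60 ± 0.09) and Mrps12 (-0.55 ± 0.06). Mrps12 encodes the decoding centre protein and stood at 10.001, 10.206 and 9.654. Mrps17 (-0.34 ± 0.08) and Mrps31 (-0.31 ± 0.17) came next in the small subunit, and Mrps30 (0.40 ± 0.12) was the fourth highest there. Of the stalk genes, Mrpl10 (0.23 ± 0.10) and Mrpl11 (0.19 ± 0.11) lay above EC and Mrpl12 (-0.24 ± 0.05) below. Small subunit proteins with a bacterial counterpart lay below it in 12 of 15 cases (median -0.25) and above it in 3, of which Mrps28 was called.

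The differences of ES against the control leave out the EC library, though the expression minimum was averaged over every library. No gene of the 74 was called in either direction, beside 1.76% of all rows called higher and 1.26% called lower (3.02% in all). The median was -0.06 for the large subunit and -0.07 for the small subunit, and -0.02 over all rows. In the large subunit 29 of 46 genes lay below the control, and in the small subunit 18 of 28, beside 51.2% of all rows below and 48.7% above. The summed linear level of the 77 genes was 39583 in ES, a difference of -9.80% from the control (-10.6% for the large subunit and -8.26% for the small). The linear sum of the whole library was also smaller in ES, 9.49 M against 10.1 M in the control, and as a share of it the genes changed by -3.85%. At the 1.5-fold line 2 genes were higher and 2 lower, where 7.41% and 6.36% of all rows were.

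**Figure D4:**
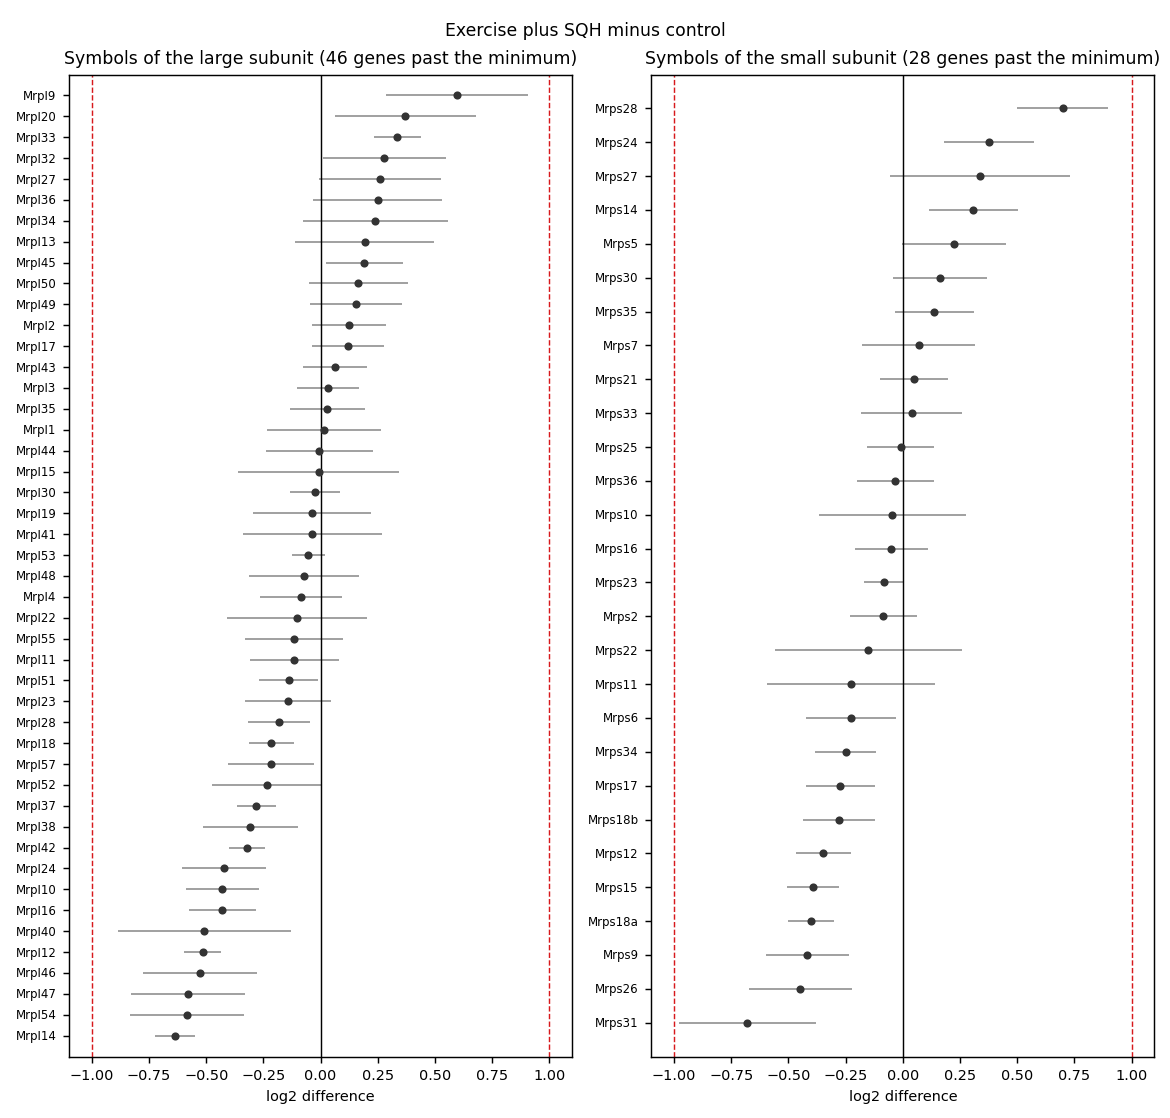
Log2 difference, ES minus control, of the 46 large and 28 small subunit genes past the minimum, with bars of 1.96 standard errors of counting and dashed lines at 2-fold. No gene reaches a dashed line; the values run from -0.68 (Mrps31) to 0.70 (Mrps28).

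Mrps28 had the highest value (0.70 ± 0.10), followed by Mrpl9 (0.60 ± 0.16), the counterpart of bacterial L9, which stood at 6.908, 6.675 and 7.504 in control, EC and ES. Mrps24 (0.38 ± 0.10), Mrpl20 (0.37 ± 0.16), Mrpl33 (0.34 ± 0.05), Mrps27 (0.34 ± 0.20), Mrps14 (0.31 ± 0.10) and Mrpl32 (0.28 ± 0.14) came next. The last 300 bases of Mrpl20 matched 178 other genes at 95% identity over 100 bases or more, so its reads are uncertain. The lowest was Mrps31 (-0.68 ± 0.15), at 7.60, 7.23 and 6.92. Mrpl14, one of the higher-expressed genes, stood at 11.06 in the control, 11.05 in EC and 10.43 in ES (-0.64 ± 0.05), so that only ES was low. It shares 106 exonic bases with Tmem63b on the opposite strand, at 11.50, 10.84 and 11.84. Mrpl54 (-0.58 ± 0.13), Mrpl47 (-0.58 ± 0.13), Mrpl46 (-0.53 ± 0.13) and Mrpl12 (-0.52 ± 0.04) completed the lower end of the large subunit. In the small subunit Mrps26 (-0.45 ± 0.12), Mrps9 (-0.42 ± 0.09) and Mrps18a (-0.40 ± 0.05) did so. All 6 central protuberance genes lay below the control (median -0.27), as did all 3 stalk genes (median -0.43), and none was called.

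The order of the 3 libraries was counted for each gene. Among small subunit genes EC was the highest library for 14 of 28 and ES the lowest for 14 of 28. Over all rows those shares were 34.3% and 30.4%. Large subunit genes had the control highest in 18 of 46, EC highest in 17, EC lowest in 19 and ES lowest in 18. The order rests on small steps for most genes. Of the 74 differences, 60.8% exceeded 1.96 standard errors of counting in EC against control, 59.5% in ES against EC and 45.9% in ES against control. Of all rows 61.3%, 61.4% and 55.8% did.

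None of the 6 mitoribosomal proteins under other symbols was called in a comparison. Dap3, a GTP-binding small subunit protein, stood at 8.85, 8.88 and 8.74. Ptcd3, a pentatricopeptide repeat protein of the small subunit, stood at 7.996, 7.561 and 7.961, and Chchd1 at 10.34, 10.38 and 10.69. Aurkaip1 stood at 9.44, 9.52 and 9.18. Of the large subunit, Gadd45gip1 stood at 9.22, 8.84 and 9.15, and Ict1, a peptidyl-tRNA hydrolase that frees stalled ribosomes, at 8.23, 8.27 and 7.91.

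Few genes of the other machinery of mitochondrial translation were called. Of 18 tested genes for ribosome assembly and ribosomal RNA modification, 2 were called lower in EC than in the control, where 5.33% of all rows were, with a list median of -0.22. These were Eral1, the chaperone of small subunit RNA (-1.19 ± 0.28), and Ybey, an endoribonuclease (-1.09 ± 0.23). Against EC, Ybey was higher in ES (1) and Mterf4, a partner of the methyltransferase Nsun4, lower (-1.03), where 5.68% and 2.33% of all rows were called. Against the control, Rnmtl1, a ribosomal RNA methyltransferase, was the 1 called lower in ES (-1.05), at 8.32, 7.70 and 7.27, beside 1.26% of all rows. Of 14 tested translation factors, Mtif2, which brings the initiator transfer RNA, was the 1 called lower in EC (-1.42 ± 0.14), at 8.81, 7.39 and 8.09, beside 5.33% of all rows. Taco1, an activator of cytochrome oxidase subunit translation, was the 1 called lower in ES than in the control (-1.602), at 7.13, 6.46 and 5.53, beside 1.26% of all rows. With lists this short, 1 or 2 calls do not set a list apart from all rows. The elongation factor gene Tufm stood at 6.92, 7.20 and 7.33.

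Of 11 tested mitochondrial aminoacyl-tRNA synthetases, Cars2 was called higher in EC than in the control (1.05 ± 0.16), beside 2.95% of all rows, and Pars2 lower in ES than in EC (-1.70), beside 2.33%. Against the control, Pars2 (-1.03) and Lars2 (-1.06) were called lower in ES, beside 1.26% of all rows. Of 6 tested genes for mitochondrial DNA copying and transcription, Ssbp1, the single-strand binding protein, was called lower in EC (-2.04 ± 0.29), at 7.15, 5.11 and 6.45, and higher in ES than in EC (1.34 ± 0.30), beside 5.33% and 5.68% of all rows. Tfam, which packages and transcribes mitochondrial DNA, stood at 7.87, 7.72 and 7.88. Transcripts encoded by mitochondrial DNA were not analysed here. Of 15 such genes looked up by symbol, none was found on a row of its own.

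Of 8 tested regulators of mitochondrial genes, Ppargc1a and Esrrg were called. This was 1 of 8 in each comparison, beside 8.29% of all rows in EC against control, 8.01% in ES against EC and 3.02% in ES against control. Ppargc1a, the coactivator PGC-1alpha, stood at 10.75, 11.35 and 12.41 and was called higher in ES than in EC (1.06 ± 0.04) and than in the control (1.65 ± 0.04). The binding factors stood at 6.49, 7.20 and 7.03 for Nrf1, 7.38, 6.86 and 7.15 for Gabpa, and 8.55, 8.33 and 8.18 for Yy1. Gabpb1, the partner of Gabpa, stood at 3.08, 3.58 and 4.20, below the minimum. The estrogen-related receptor gene Esrra stood at 9.49, 9.08 and 9.74, and Esrrg, called lower in EC (-1.08 ± 0.15), at 8.32, 7.24 and 8.13. Ppargc1b stood at 9.44, 9.64 and 9.56, Pprc1 at 6.91, 6.20 and 6.45, and Myc at 1.48, 3.06 and 4.21, where it was too low to compare.

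For scale, the 77 tested nuclear genes of the respiratory chain and ATP synthase had medians of 0.06, -0.04 and 0.02 in EC against control, ES against EC, and ES against control. The 73 tested cytosolic ribosomal protein genes had medians of -0.01, 0.07 and 0.05. Beside these the small subunit of the mitochondrial ribosome had 0.02, -0.20 and -0.07 and the large subunit -0.07, -0.03 and -0.06. With 1 library per group, none of these list medians can be said to differ.

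**Figure D5:**
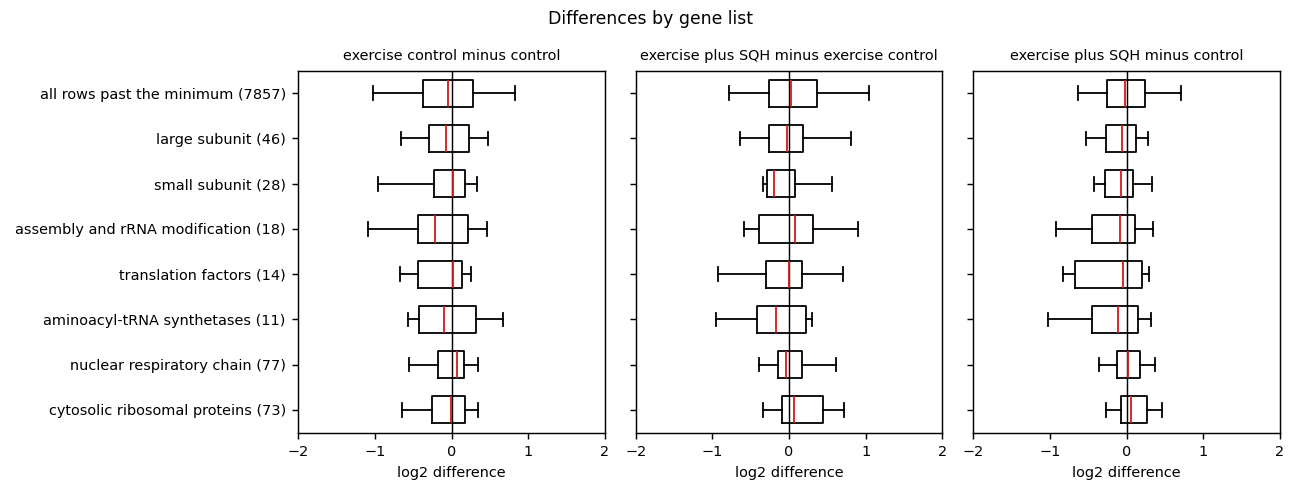
Log2 differences of 8 gene sets in the 3 comparisons, with the number of genes past the minimum in brackets. Boxes span the quartiles, red lines are medians and whiskers reach the 5th and 95th percentiles; both subunits sit close to 0 with boxes no wider than that of all 7857 rows.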

How the data were processed

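Skeletal muscle RNA of 3 groups, 1 library each, was read as Lexogen QuantSeq 3' libraries, per the labels' protocols. Bowtie2, edgeR and mm10 are listed in the submitters' processing notes without a role. How reads were assigned to genes and strands is not stated there. The deposited values are log2 levels, 1 per row, and a few symbols that are not members stand on several rows. Per the file headers a column is only a sample code, so the scale was read from the values. Low linear values bunch at multiples of a step of 0.939 (control), 1.19 (exercise control) and 0.766 (SQH), with 100%, 95.7% and 84.4% of values up to 9 within 0.2 step of a whole multiple, as a read count adjusted for library size would. Reads are linear values divided by that step, so they are approximate, and no count model was fitted.

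The members and gene lists were chosen with earlier results of these data known. Genes called are as defined in the report. Named genes are all called members, for each comparison and subunit the 4 highest and 4 lowest differences, the 3 highest and 3 lowest levels, and called genes or extremes of the role and pathway lists, with regulators and other-symbol proteins in full. Groups come from the sample titles. Alternatives were centring, quantile normalization, TMM scaling, no or a stricter minimum, a pseudocount of 10, a 1.5-fold line and another subunit assignment. The calling and the standard errors were tested on simulated data. The simulated data held counting error only, without variation between animals or library preparations, so they check the calculation alone. Positions and exonic overlaps are from GENCODE M21, in which all 77 symbols were found, and matching transcript ends were sought with blastn 2.17.0. Python 3.11.15, numpy 2.4.6 and pandas 2.3.3 were used.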

Additional observations from a re-analysis of the deposited data

How the results depend on the processing

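No paired analysis was possible because each group has 1 library. For the same reason no library could be left out of a comparison. Only the differences of ES against control are free of the EC library, which still enters the expression minimum. Centring the libraries moved the median of all rows from -0.05 to 0.03 in EC against control and from 0.03 to -0.05 in ES against EC. In EC against control, 1 gene (Mrps24) was called higher after centring, after quantile normalization and after TMM scaling, instead of 0. At the 1.5-fold line 2 genes were higher and 9 lower there, instead of 0 and 4, and with the stricter minimum 0 were lower. In ES against EC, 7 were higher and 7 lower at 1.5-fold, instead of 4 and 1, and 1 and 0 with the stricter minimum. The small subunit median of that comparison was -0.28 after centring instead of -0.20. In ES against control, 2 were higher and 2 lower at 1.5-fold, instead of 0 and 0. Of 356 recomputed differences of named genes, 6 changed sign, all of 0.053 or less in size. Genes with few reads, such as Mrps28 in EC with 39, are limited by depth.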

Other observations

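Split by level after the values were seen, the 37 more highly expressed of the 74 genes (mean linear value of 381.8 or more) lay below the control in 28 cases in ES, with a median of -0.14. Among the 3065 rows of at least that level 54.3% lay below. In the same genes 28 of 37 lay below EC in ES (median -0.22), beside 50% of those rows, and no gene was called in any comparison, where 5.97%, 5.25% and 1.53% of those rows were called in EC against control, ES against EC and ES against control. All genes called in a comparison belonged to the 37 with lower levels. Of these, 4 were called in EC against control and 5 in ES against EC, beside 9.77% of all rows under that level in each. Only 14 of these 37 lay below EC in ES (median 0.14), beside 46.4% of those rows. Against the control 19 lay below in ES (median -0.01), beside 49.2%. The more and the less highly expressed genes thus had medians of opposite sign in ES against EC. Over all rows split at the same level, those medians were -0.002 and 0.05, also of opposite sign.

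Of the 77 genes, 26 start head to head with a coding gene on the opposite strand. Their starts lie within 1000 bases of each other, and an overlap of the starts of up to 500 bases was allowed. The share among all genes was not computed. Mrpl32 (-0.36 in EC against control) is paired in this way with the proteasome gene Psma2 (0.06), Mrpl36 (0.11) with the complex I gene Ndufs6 (0.60), and Mrpl49 (-0.11) with Fau (-0.11), which encodes a cytosolic ribosomal protein. Mrps12 (0.21) faces the mitochondrial seryl-tRNA synthetase gene Sars2 (0.80), which was below the expression minimum, and Mrps27 (0.32) faces Ptcd2 (0.13). Mrpl27 (-1.34) and Mrpl44 (-1.20) face Eme1 (-0.14) and Wdfy1 (-0.25), which differed by less. Mrpl21 (-1.24) with Ighmbp2 (-1.62) and Mrpl54 (-0.71) with Apba3 (-0.85) were both lower in EC. Mrpl21 is below the minimum, and Ighmbp2 was lower still, at 5.19, 3.58 and 5.08 in control, EC and ES. The 26 genes form 25 pairs, of which 22 have a partner above 0 in every library. No expression minimum was applied to these pairs, and some partners were low, such as Helq at 1.48 in the control. In EC against control 13 of these pairs differed in the same direction and 8 in opposite directions, and 1 had a member with no difference. Mrpl46 (-0.46) and Mrps11 (0.03) overlap at their starts by 173 exonic bases on opposite strands.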
